A study of Mus musculus with 12 samples.

Results

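Thymocytes that carry both CD4 and CD8 give rise to helper T cells, which keep the coreceptor CD4, and to cytotoxic T cells, which keep CD8. The 8 genes described here are its coreceptors and the factors that act in or around that decision, and all 8 were found among the 41128 genes of the deposited table by their gene names. They are Cd4, which encodes the coreceptor that binds MHC class II; Cd8a and Cd8b1, which encode the alpha and beta chains of the coreceptor that binds MHC class I; Zbtb7b, which encodes the CD4 lineage factor ThPOK; Runx1 and Runx3, DNA-binding Runt factors; Cbfb, their shared partner subunit; and Tox, an HMG-box factor.

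Expression was measured by RNA sequencing in spleen cells of C57BL/6J mice aged 6 to 8 weeks, with no engineered allele and no treatment named in the labels. The 12 libraries form 4 groups of 3, namely resting B cells lacking CD43 from females and from males, numbered 1 to 3 in each sex, and naive CD4+ T cells from females and from males, numbered 4 to 6. The T cells were depleted with antibodies that included one against CD8a and one against CD25, and then sorted as CD4+, CD62L high, CD44 low and CD25-, so the sort itself selected on the products of Cd4 and Cd8a. Replicates are pooled mice per the series, so p-values measure the spread between pools. Marker genes fitted the labels: the summed level of 5 T cell genes was 1063 to 1400 in T cell libraries and 9.80 to 14.3 in B cell libraries, and that of 5 B cell genes was 2610 to 2972 in B cell libraries and no more than 5.34 in T cell libraries.

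In the developing T cell, ThPOK holds cells in the CD4 lineage by opposing Runx3, and Runx3 with CBF beta silences Cd4 and Zbtb7b in the CD8 lineage. TOX is needed for the CD4 lineage to form in the thymus. Runx1 acts earlier and more widely, in blood stem cells, in B cells and at the silencer of Cd4 before the decision is made.

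Runt factors bind a short DNA core, and the starts of the members were searched for it because Runx1 and Runx3 encode factors that bind there. RefSeq promoter windows on GRCm38, from 250 bases before to 50 bases after a start, were given for Zbtb7b, Runx1 and Runx3, with 2 starts each, and for Cd8a and Cbfb, with 1 each. Cd4, Cd8b1 and Tox had no matched window. The letters TGTGGT or TGCGGT, read on both strands, occurred in 4 of these 8 windows and in 22.4% of all 32851 windows, with TGTGGT in 16.8% and TGCGGT in 6.45% of them. The motifs cannot match at the same position. A match is a run of letters and not a measured binding site.

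The start of Zbtb7b at position 89387671 of chromosome 3 lies inside the gene, in no exon of the GENCODE M21 annotation over the 250 bases printed here, and holds 1 match 89 bases before the start. The outer start of Runx3, at position 135120645 of chromosome 4, holds 2 matches on the reverse strand, 134 and 126 bases before it. Elsewhere in its 250 bases the annotation places part of an exon of the noncoding gene Gm16225 on the other strand. The 250 bases before each start are shown 5′ to 3′ on the gene's strand, with the matches in capitals.
Zbtb7b, chr3:89387672-89387921, minus strand: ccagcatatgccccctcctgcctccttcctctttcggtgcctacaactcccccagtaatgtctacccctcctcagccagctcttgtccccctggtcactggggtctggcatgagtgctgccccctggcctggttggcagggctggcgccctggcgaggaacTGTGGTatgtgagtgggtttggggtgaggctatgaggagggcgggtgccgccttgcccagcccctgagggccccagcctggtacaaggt
Runx3, chr4:135120395-135120644, plus strand: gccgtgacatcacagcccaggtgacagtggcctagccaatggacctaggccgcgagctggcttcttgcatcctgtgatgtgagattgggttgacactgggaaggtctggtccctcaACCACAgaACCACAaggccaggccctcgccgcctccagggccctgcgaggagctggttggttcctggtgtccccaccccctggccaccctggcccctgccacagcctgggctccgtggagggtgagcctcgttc

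The outer start of Runx1, at position 92826074 of chromosome 16, is followed by a pair of matches with the same spacing as in Runx3, both on the reverse strand, at bases 29 and 37 counted from the start as base 1. In Cd8a, whose start is at position 71373427 of chromosome 6, the single match is on the reverse strand at base 44. Both lie in the annotated first exon, in the 5′ untranslated part, so 30 bases of each are shown in the same way. The inner starts of Runx1 and Runx3, the outer start of Zbtb7b and the start of Cbfb held neither motif.
Runx1, chr16:92826029-92826058, minus strand: acctcataaacaACCACAgaACCACAagtt
Cd8a, chr6:71373447-71373476, plus strand: ccccgaccctacacgcctcccccACCGCAc

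All levels below are adjusted TPM, a length-corrected share of transcripts that the authors rescaled between libraries, so levels of different genes may be set beside each other. The read depth behind them is unknown, and each value has a deposited lower and upper bound in its place. Differences between cell types are B minus T on the scale of log2(adjusted TPM + 1), which understates the change of low genes. Each adjusted p of such a difference comes from limma fitted over the 12520 genes that reached an adjusted TPM of 1 in 3 or more libraries, adjusted by Benjamini-Hochberg over all of them, with a threshold of 0.05. The fit takes the 6 T cell libraries as separate, although same-numbered ones deviated together. No limma fit with them averaged was made, so these adjusted p-values may be too small.

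The 8 genes fell into 2 kinds. Zbtb7b, Runx1, Runx3 and Cbfb were above 1 in all 12 libraries. Cd4, Cd8b1 and Tox reached 1 in T cell libraries alone, and Cd8a in 5 of the 6 B cell libraries and in no T cell library. The latter 4 passed the filter through a single cell type and therefore had to differ. No p-value is given for their differences between the cell types. Over all genes tested, 73.0% passed the threshold between B and T cells, 31.4% higher in B and 41.6% higher in T cells, and 53.9% had no overlap between the libraries of the cell types. Each of the 4 genes present in both cell types passed the threshold in the main fit, as did 68.8% of the 10358 genes that passed the filter in both. Zbtb7b and Cbfb were higher in T cells and Runx3 and Runx1 in B cells. The calls of Runx1 and Cbfb did not hold under every alternative, as given below. Passing the threshold is ordinary for these data, and the sizes of the differences carry the description that follows.

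**Figure D1:**
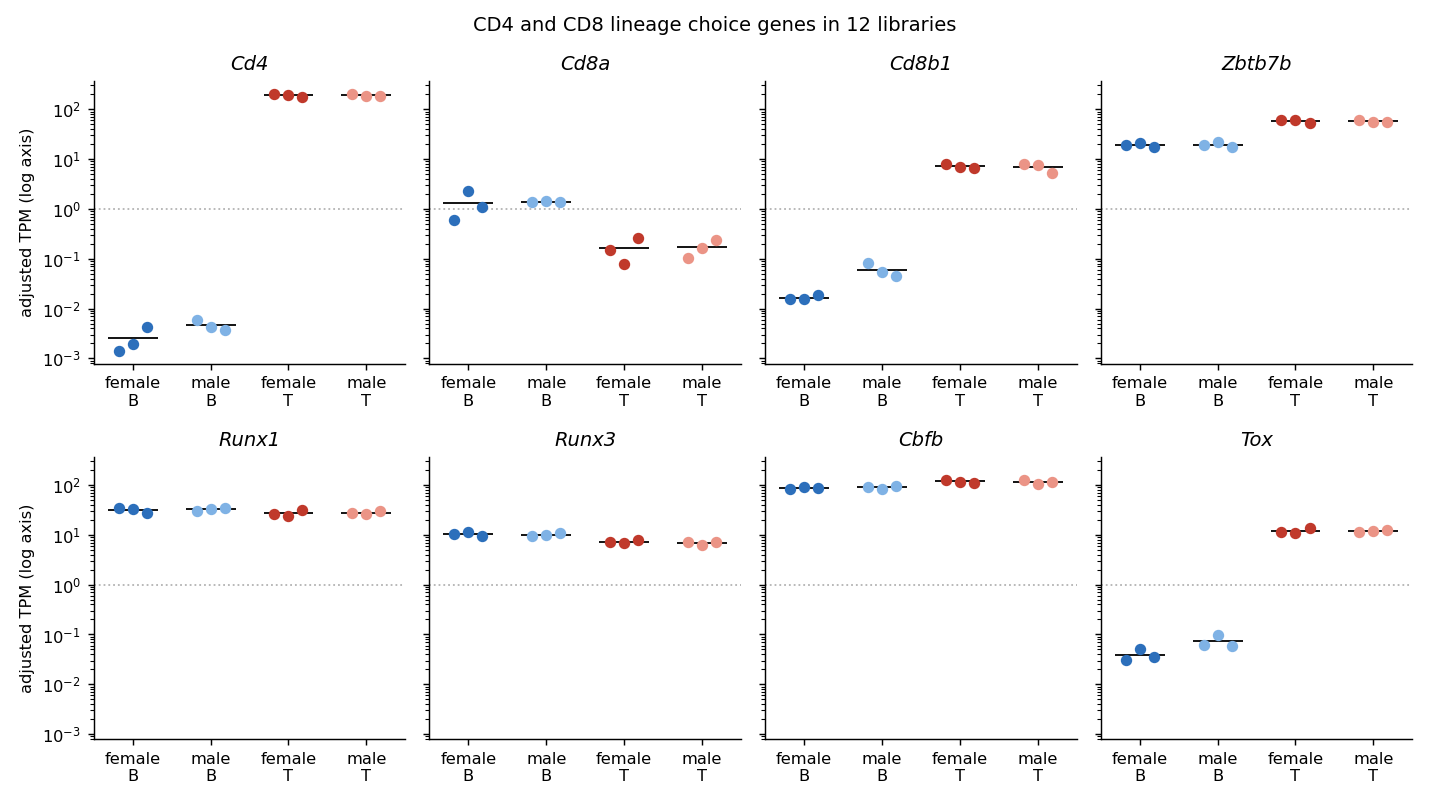
Adjusted TPM (log axis) of the 8 genes in each of 12 libraries, in 4 groups of 3; points are libraries, ordered by number within a group, black lines are group means and the dotted line marks 1. Cd4, Cd8b1 and Tox lie below 0.1 in every B cell library, Cd8a lies higher in B than in T cell libraries, and Runx1 alone overlaps between the cell types.

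Cd4, on chromosome 6 from 124864692 to 124888221, was the highest of the 8 genes in T cells and the lowest in B cells. Its level was 203, 193 and 179.6 in the female T cell libraries and 199.9, 188 and 181 in the male ones. In B cells it was at most 0.00594, with upper bounds of at most 0.0214. The groups did not approach each other: the lowest lower bound in T cells, 175, was 8201 times the highest upper bound in B cells. The difference was -7.58 ± 0.05 (SE). Cells had been sorted on this protein, so the difference describes the sort as well as the cell types. Within T cells, Cd4 had the smallest spread of the 8 genes, with an SD of 5.13% of the mean (n = 6). On the log2 scale its SD within groups, 0.06, was lower than that of all but 2.36% of the tested genes, a figure that the near-absence in B cells also lowers.

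Zbtb7b, on chromosome 3 from 89377644 to 89394776, was present in both cell types and higher in T cells. The female T cell libraries had 59.8, 62.1 and 53.7, and the male ones 61.2, 56.7 and 56.0. B cells also held clear levels, with 18.7, 21.4 and 17.8 in the female and 18.95, 21.8 and 17.5 in the male libraries. The lowest T cell library was 2.47 times the highest B cell library, and no deposited bounds overlapped. The means were 58.2 ± 3.30 in T cells and 19.4 ± 1.80 in B cells (SD, n = 6 each), a ratio of 3.01, and the log2 difference was -1.54 ± 0.07 (SE; adjusted p = 2.41e-10). With 19.4, the transcript of the CD4 lineage factor lay above 67.0% of the tested genes in B cells. An antisense gene, Gm15417, overlaps it on the other strand, with 2.92 to 4.17 in T cells and 1.13 to 1.31 in B cells. The kit marks strand, but the strand setting of the quantification is not given in the sources used here, so a part of either signal could belong to the other gene.

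Tox, on chromosome 4 from 6686353 to 6991557, was found in T cells, with 11.5, 10.8 and 13.8 in the female and 11.3, 11.96 and 12.6 in the male libraries. In B cells it lay between 0.0308 and 0.0989. The lowest lower bound in T cells was 55.3 times the highest upper bound in B cells, and the log2 difference was -3.62 ± 0.07 (SE). Tox is known best from the thymus and from exhausted T cells, and here the naive T cells of the spleen held it at a level above 52.6% of the tested genes.

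The CD8 chains went in opposite directions. Cd8b1 and Cd8a are neighbours on chromosome 6, on the same strand, from 71322788 to 71337494 and from 71373427 to 71379173, with 35932 bases between them. Cd8b1 was found in the CD4+ T cells, at 8.11, 6.87 and 6.65 in the female and 8.05, 7.44 and 5.25 in the male libraries. In B cells it was 0.0153 to 0.0804. The log2 difference was -2.95 ± 0.09 (SE), and the nearest bounds of the cell types lay 22.6 times apart.

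Cd8a was nearly missing from the same T cells, in which CD8a had been an antibody target of the depletion. The female T cell libraries had 0.153, 0.0768 and 0.256, and the male ones 0.105, 0.168 and 0.238. B cells had 0.591, 2.31 and 1.09 in females and 1.40, 1.42 and 1.36 in males. The lowest B cell library stood 2.31 times above the highest T cell library, but the lower bound of female B cell 1, 0.380, lay below the upper bound of male T cell 6, 0.404. The log2 difference was 0.99 ± 0.14 (SE), and with a pseudocount of 0.1 in place of 1 it was 2.41. On the log2(adjusted TPM + 1) scale Cd8a had the widest SD within groups of the 8 genes, higher than that of 93.3% of the tested genes. In B cells its highest library was 3.91 times its lowest, which was less than for the far lower Cd8b1 (5.26) and Cd4 (4.19).

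Within a library the order of the CD8 chains was therefore the reverse in the 2 cell types. Cd8b1 was 22.1 to 89.5 times Cd8a in T cells, and Cd8a was 17.4 to 151 times Cd8b1 in B cells. These ratios were given no test because one of the terms was under 0.1 in some libraries, where the bounds are wide: in B cells the upper bound of Cd8b1 was 9.87 to 71.0 times the lower.

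Genes of other cells were read beside both chains. In bulk RNA, fewer cells of a type and less RNA per cell cannot be told apart. The summed level of 6 markers of conventional dendritic cells, some of which carry CD8 alpha chains without beta chains, was 4.31 to 11.8 in B cell libraries and 1.88 to 3.35 in T cell libraries. Of the B cell libraries, female B cell 1 was lowest and female B cell 2 highest for both this sum and Cd8a, while the other 4 did not follow one order: female B cell 3 had a sum of 7.45 with a Cd8a of 1.09, and male B cell 1 a sum of 6.74 with a Cd8a of 1.40. Among the 6 markers, Clec9a was 0.968 to 2.08 in B cells and under 0.01 in T cells, Xcr1 was 0.673 to 2.32 against 0.0444 to 0.193, and Itgax 1.06 to 4.08 against 0.0372 to 0.499. Zbtb46 was higher in T cells, at 1.72 to 2.59 against 0.836 to 1.75, and Batf3 and Cd209a reached at most 1.16 and 0.799 in any library. The summed level of 5 plasmacytoid dendritic cell markers was 19.9 to 24.6 in B and 43.4 to 58.0 in T cell libraries. Most of it was Bst2, at 26.2 to 40.4 in T cells, and Pacsin1, at 13.2 to 14.6, while the defining gene Siglech was no more than 0.00180 in every library. The summed level of 5 macrophage or monocyte markers was 9.25 to 13.4 in B and 1.11 to 5.84 in T cell libraries, and that of 4 neutrophil markers no more than 2.60 in any. The part of such cells in the Cd8a level was not tested.

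Beside Cd8b1, the summed level of 8 markers of cytotoxic T and natural killer cells was 34.0 to 42.6 in T cell libraries and 2.21 to 5.44 in B cell libraries. In T cells 5 of the 8 were under 1 in every library, among them Gzmk at no more than 0.00102, Nkg7 at no more than 0.561 and Ccl5 at no more than 0.562. Nearly all of the sum came from Klrd1, a lectin receptor chain, at 15.9 to 23.97, and Prf1, the pore-forming protein perforin, at 11.5 to 17.6, with Eomes at 1.06 to 2.88. The part of CD8 T cells in the Cd8b1 level was not tested.

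**Figure D2:**
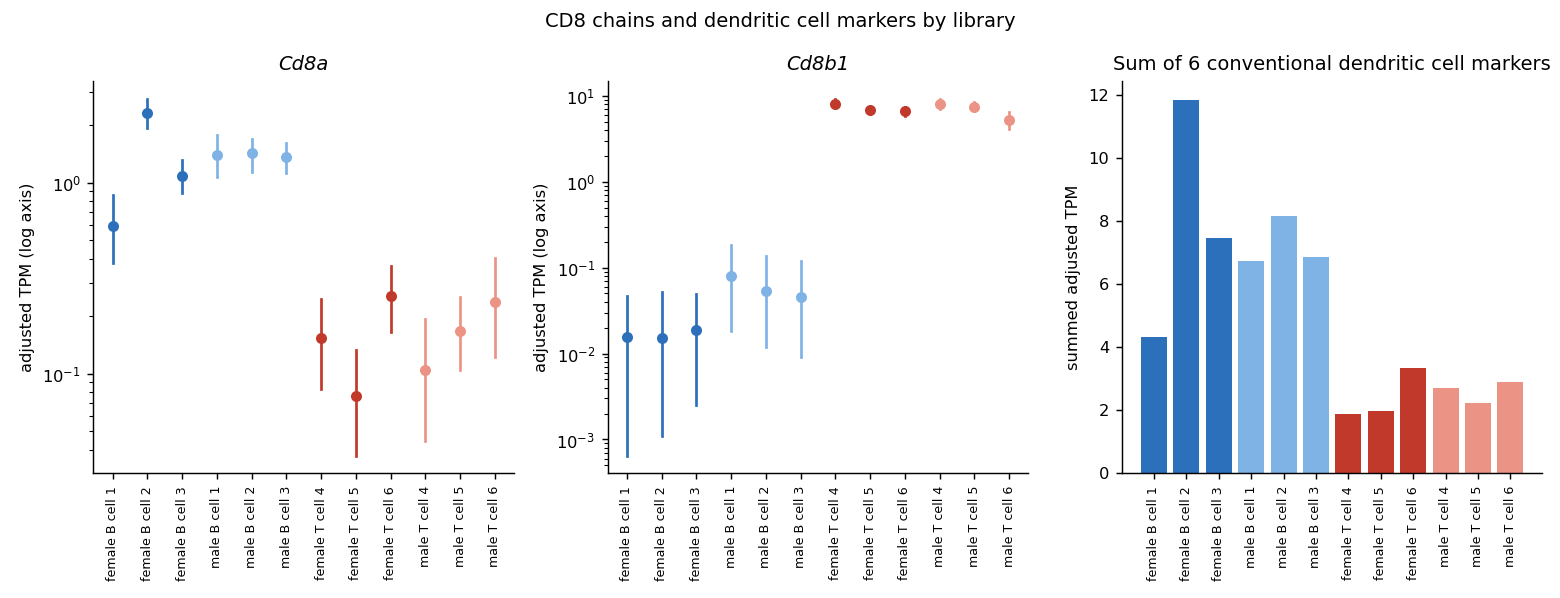
Left and middle, Cd8a and Cd8b1 in each library (adjusted TPM, log axes with different ranges), with points for the estimates and lines for the deposited lower and upper bounds; right, the summed adjusted TPM of 6 conventional dendritic cell markers. Cd8a is 0.591 to 2.31 in B and 0.0768 to 0.256 in T cells, Cd8b1 at most 0.0804 in B and 5.25 to 8.11 in T cells, and the marker sum is highest in female B cell 2.

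The Runt genes differed less between the cell types. Runx3, on chromosome 4 from 135120652 to 135177990 and known for the CD8 lineage, was 10.2, 11.5 and 9.67 in female and 9.28, 10.1 and 10.7 in male B cells. The T cell libraries had 7.21, 6.76 and 7.92 in females and 7.002, 6.36 and 7.25 in males. Every B cell library was above every T cell library, although the nearest deposited bounds overlapped. The ratio of means was 1.45 and the log2 difference 0.47 ± 0.06 (SE; adjusted p = 2.11e-05).

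Runx1, on chromosome 16 from 92601466 to 92826149, was the higher Runt gene in both cell types. It was 34.4, 32.2 and 26.9 in female and 29.8, 32.3 and 34.5 in male B cells, and 26.3, 24.3 and 31.1 in female and 26.8, 25.8 and 29.8 in male T cells. It was the only one of the 8 genes whose libraries overlapped, since female B cell 3 and male B cell 1 lay below the 2 T cell libraries numbered 6. The log2 difference of 0.20 ± 0.08 (SE; adjusted p = 0.0307) lay near the threshold. In 8 of the 12 fits that each left out 1 library the adjusted p rose above it, to between 0.0529 and 0.0826, with differences of 0.17 to 0.20, and without any filter on low values it was 0.0505. Under other scalings the difference was larger, at 0.58 with equal totals (adjusted p = 0.00665), 0.49 with equal protein-coding totals (adjusted p = 0.000556) and 0.29 with median-ratio scaling (adjusted p = 0.00726). The 8 libraries were female B cells 1 and 2, male B cells 2 and 3, and the 4 T cell libraries numbered 4 and 5.

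Cbfb, on chromosome 8 from 105170674 to 105217989, encodes the subunit that binds no DNA itself and steadies the Runt factors on it. It was 81.2, 88.9 and 87.5 in female and 92.4, 84.2 and 93.5 in male B cells. In T cells it was 128, 116 and 108 in females and 123, 105 and 116 in males, all above the B cell libraries. The ratio of means was 1.32 and the log2 difference -0.39 ± 0.06 (SE; adjusted p = 7.73e-05). This call depended on the scaling between libraries. With equal library totals of 1000000 the difference was -0.02 (adjusted p = 0.955), and with equal totals of the protein-coding genes alone, an alternative chosen after seeing the data, it was -0.11 (adjusted p = 0.180).

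The scaling moved the median of all genes as well. The median difference of all tested genes was -0.09 as deposited, 0.25 with equal totals, 0.17 with equal protein-coding totals, -0.01 with median-ratio scaling and -0.08 with quantile normalization. Genes near 0 in one cell type moved otherwise: under equal protein-coding totals Cd4 was -8.59, Cd8b1 -3.80 and Tox -4.47. Measured from the median, Cbfb was -0.31, -0.27, -0.29, -0.30 and -0.25 in that order. Runx3 was 0.56 to 0.60 above it and Runx1 0.29 to 0.32 above it under the same 5 scalings. None of the 8 genes changed direction under any of them.

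**Figure D3:**
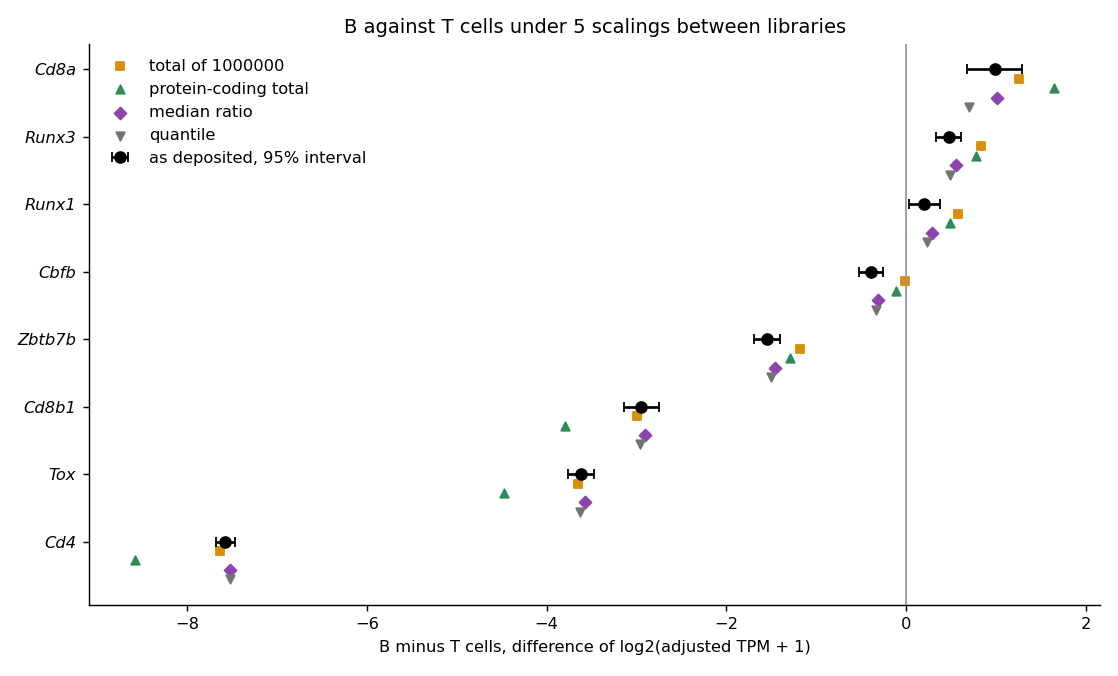
B minus T difference of log2(adjusted TPM + 1) for each gene as deposited (black points, with 95% confidence intervals from limma) and under 4 other scalings between libraries (coloured symbols). Cbfb runs from -0.39 to -0.02, and each of the other 7 genes stays on the same side of 0.

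Ratios within a library do not depend on the scaling, and 3 were tested with a two-sided exact permutation test of 6 B against 6 T cell libraries. The ratio of Runx3 to Runx1 was 0.325 ± 0.0267 in B and 0.260 ± 0.0143 in T cells (SD, n = 6 each). Zbtb7b to Runx3, the pair that oppose each other in the lineage choice, was 1.90 ± 0.181 in B and 8.27 ± 0.895 in T cells. Cbfb to the sum of Runx1 and Runx3 was 2.11 ± 0.225 in B and 3.39 ± 0.404 in T cells. No ratio overlapped between the cell types, and each had an exact p of 0.00216, also after adjustment over the 3, which is the smallest that this design can give. With the same-numbered T cell libraries averaged, which leaves 3 values for T cells, each exact p was 0.0238. Thus, at the level of transcripts, T cells held more Zbtb7b per Runx3, more Cbfb per summed Runx1 and Runx3, and slightly less Runx3 per Runx1. Protein was not measured. The ratios are made of the levels given above, so their p-values are no separate evidence. Of the summed Runt transcripts, Runx1 made up 73.4% to 77.1% in B and 78.2% to 80.3% in T cells, and Runx2 at most 0.293% in any library.

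**Figure D4:**
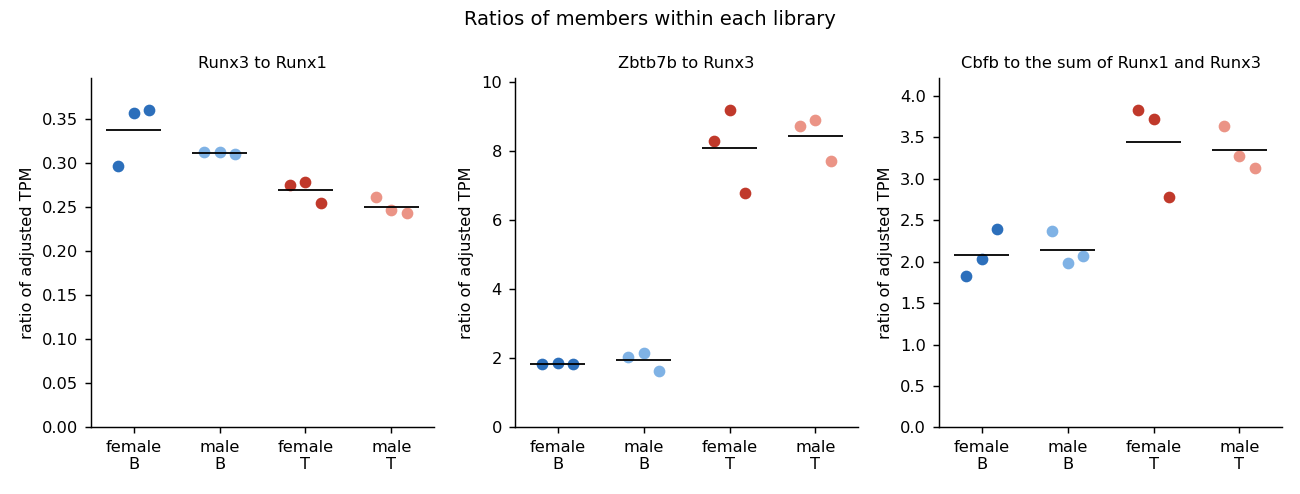
Ratios of adjusted TPM within each library for Runx3 to Runx1, Zbtb7b to Runx3, and Cbfb to the sum of Runx1 and Runx3; points are libraries and black lines group means, with each axis starting at 0. Runx3 to Runx1 is higher in B cells and the other ratios are higher in T cells, with no overlap between cell types.

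The levels of the 8 genes were also put in order within each cell type, and neighbours were compared with two-sided exact paired permutation tests over the 6 libraries. In T cells the order was Cd4, Cbfb, Zbtb7b, Runx1, Tox, Runx3, Cd8b1 and Cd8a. In B cells it was Cbfb, Runx1, Zbtb7b, Runx3, Cd8a, Tox, Cd8b1 and Cd4. Of the 14 neighbouring pairs, 12 kept their order in 6 of 6 libraries, with an exact p of 0.03125, the smallest that 64 sign patterns can give, and an adjusted p of 0.0365. The neighbours were picked by the means of the same libraries, so these p-values are no separate evidence for the order. This test takes the 6 T cell libraries as separate, although the same numbers deviated together. Averaged by number, the 3 T cell values allow no exact p under 0.25, and no pair of either cell type passed after adjustment (the smallest adjusted p was 0.0729, from the exact permutation tests). The B cell values were unchanged there, and their adjusted p rose because the pairs of both cell types were adjusted together. Runx3 and Cd8b1 in T cells did not differ beyond their spread (exact permutation test, adjusted p = 0.813), nor did Tox and Cd8b1 in B cells (exact permutation test, adjusted p = 0.168). The lowest 3 genes in B cells were all under 0.1, where the bounds are wide. Zbtb7b and Runx1 changed places between the cell types: Runx1 was above Zbtb7b in 6 of 6 B cell libraries and below it in 6 of 6 T cell libraries.

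T cell libraries of the same number lay together for several genes. Those numbered 4 were the highest T cell libraries for Cd4, Cd8b1 and Cbfb, and those numbered 5 the lowest for Runx1 and Runx3. The share of all tested genes that did the same was not counted for these numbers. Whether this is particular to the 8 genes is therefore unknown. The 2 numbered 6 also stood apart from the others, and this was counted over all genes for them alone. In 7 of the 8 genes both lay on one side of the other 4 T cell libraries, as in 35.6% of all tested genes. Cd4, Zbtb7b and Cd8b1 were lower in them, Cd4 at 179.6 and 181 against 188 to 203, Zbtb7b at 53.7 and 56.0 against 56.7 to 62.1, and Cd8b1 at 6.65 and 5.25 against 6.87 to 8.11. Runx1, Runx3, Tox and Cd8a were higher, Runx1 at 31.1 and 29.8 against 24.3 to 26.8, and Tox at 13.8 and 12.6 against 10.8 to 11.96. The same 2 libraries had a summed level of 4 regulatory T cell markers of 34.2 and 28.6, against 3.32 to 5.29 in the other 4, although the sort had removed CD25. Each of the 4 markers was higher in both, Ikzf2 at 13.4 and 11.3 against 1.07 to 2.07, Ctla4 at 13.2 and 11.4 against 1.57 to 2.15, Foxp3 at 2.57 and 1.82 against 0.440 to 0.735, and Il2ra at 4.999 and 4.11 against 0.158 to 0.340. Markers of other cells differed in the same libraries. The macrophage or monocyte sum was 5.84 and 2.35 against 1.11 to 1.59, the conventional dendritic sum 3.35 and 2.89 against 1.88 to 2.70, the B cell sum 5.34 and 2.60 against 0.900 to 1.997, and the T cell sum 1063 and 1164 against 1252 to 1400. The 2 libraries also differed in scale. Male T cell 6 had the largest total of the 12 libraries, 1453940, and female T cell 6 the smallest of the T cell libraries, 799769. Male T cell 6 also had the widest bounds, with a median ratio of upper to lower of 1.55 for values from 1 to 10. The part of such cells, or of scale and precision, in these differences was not tested. Without these 2 libraries, an alternative chosen after seeing the data, the B minus T difference of Runx1 was 0.28, that of Zbtb7b -1.59, that of Cd8b1 -3.05 and that of Tox -3.55. The 2 were the highest T cell libraries for Runx1 and Runx3 and the lowest for Zbtb7b and Cd8b1. Leaving them out therefore had to widen the differences of those genes. Zbtb7b, Runx1, Runx3 and Cbfb, the genes present in both cell types, were past the threshold in this fit. For Zbtb7b, Runx1 and Runx3 this is no support for their calls.

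The sexes were then compared within each cell type. None of the 8 genes passed the threshold in B cells, in T cells or in the difference between the sex effects, where 0.144%, 0.104% and 0% of all tested genes did. The smallest unadjusted p among the 8 genes was 0.452 in B cells, 0.421 in T cells and 0.434 for the difference, all from limma, and 295 of all tested genes had an unadjusted p under 0.05 for the difference. The female minus male differences ran from -0.11 to 0.05 in B and from -0.02 to 0.08 in T cells on the log2 scale. Their 95% confidence intervals reached from -0.54 to 0.32 in B and from -0.44 to 0.42 in T cells, the widest being those of Cd8a, so differences inside these limits could not be told from none with 3 libraries a group. This fit took same-numbered female and male T cell libraries as unpaired although they deviated together. Its p-values and intervals for the sexes in T cells may therefore be too large. With the number as a block, none of the 8 genes passed either. Cd8b1 and Tox had no overlap between female and male B cells, as 7.20% of the tested genes did, but both were under 0.1 there with overlapping bounds. No gene of the 8 was without overlap in T cells, against 8.49% of the tested genes.

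The genes whose levels over the 12 libraries were closest to those of the coreceptors and of Zbtb7b were found by Euclidean distance on the log2(adjusted TPM + 1) scale, which mostly reads the levels in the 2 cell types. Cd4 was nearest to Igfbp4, which encodes a binding protein of insulin-like growth factors (distance 0.40), then to Als2cl (0.67) and to the surface protein gene Thy1 (0.68). Zbtb7b was nearest to Pydc3 (0.48), the dynactin subunit gene Dctn6 (0.55) and the pseudogene Gm10275 (0.55). Cd8a was nearest to Havcr2, which encodes the receptor TIM-3 (0.51), at 0.556 to 2.21 in B and 0.00515 to 0.161 in T cells, then to Tmem17 (0.54) and C030013C21Rik (0.55). Cd8b1 was nearest to the noncoding gene Gm16565 (0.30), to Qprt, an enzyme of NAD synthesis (0.45), and to Dntt, the polymerase that adds bases at antigen receptor joins (0.48), which was 6.50 to 7.96 in T cells and did not exceed 0.0112 in B cells.

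Other genes of the lineage choice were taken from 6 lists, each described by its counts beside all tested genes, whose median difference was -0.09. Of 13 partners and upstream factors of the CD4 lineage, all tested, 9 were higher in T cells, 3 higher in B cells and 1 did not pass, with a median of -0.80. Tcf7, the factor TCF-1 that acts upstream of ThPOK, was 367 ± 19.1 in T and 0.534 ± 0.177 in B cells, and Bcl11b, a zinc finger factor of T cell commitment, was 94.3 ± 5.43 in T and 0.0117 ± 0.00630 in B cells (SD, n = 6 each). In the other direction, Bcl6 was 28.5 ± 5.39 in B and 6.46 ± 0.489 in T cells, and Tcf3, which encodes E proteins, was 66.9 ± 3.60 in B and 24.9 ± 2.55 in T cells. Tcf7, Gata3 and Bcl11b passed the filter through T cells alone. Of the 10 that passed it in both cell types, 6 were higher in T cells and 3 in B cells, where 42.2% and 26.6% of all genes that passed in both were. With equal totals, 6 of the 13 were higher in T cells and 3 in B cells. With equal protein-coding totals, 7 were higher in T cells and 4 in B cells.

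Of 12 Runt family and co-repressor genes, 9 were tested, 5 were higher in T cells, 2 in B cells and 2 did not pass, with a median of -0.15. Cbfa2t3, a co-repressor of the ETO family, was 6.31 ± 1.26 in B cells and did not exceed 0.00679 in T cells, and its relative Cbfa2t2 differed by 0.16 (adjusted p = 0.0219). Aes, a short Groucho-family protein, was 203 ± 20.95 in T and 80.6 ± 9.33 in B cells, and the deacetylase gene Hdac2 was 51.0 ± 6.62 in T and 30.4 ± 1.58 in B cells. Cbfa2t3 passed the filter through B cells alone, and of the 8 that passed it in both cell types 5 were higher in T cells and 1 in B cells. The shares of all genes that passed in both were 42.2% and 26.6%. With totals rescaled to 1000000, 1 of the 9 was higher in T cells and 2 in B cells.

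All 11 chromatin factors were tested, and 4 were higher in B cells, 2 in T cells and 5 did not pass, with a median of 0.01. All 11 passed the filter in both cell types, where 26.6% of all such genes were higher in B cells and 42.2% in T cells. The differences were small: Tet2, which oxidises methylated DNA, differed by 0.53 (adjusted p = 0.000133) and Ehmt2, a histone H3 methyltransferase, by 0.36 (adjusted p = 6.31e-05). The DNA methyltransferase genes Dnmt1 and Dnmt3a differed by -0.33 (adjusted p = 0.00185) and -0.17 (adjusted p = 0.0158), but under equal protein-coding totals no gene of the list was higher in T cells and 8 were higher in B cells. Of the other TOX genes, Tox4 was near equal, at 34.6 ± 0.977 in T and 30.6 ± 2.20 in B cells (difference -0.17, adjusted p = 0.0118), and its sign turned under 2 of the 4 other scalings. Tox2 and Tox3 were under 0.01 in every library.

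Of 9 genes of the cytokine axis that favours the CD8 choice in the thymus, 8 were higher in T cells, none in B cells, and Stat6 did not pass, with a median of -0.80. Il7r, the receptor chain of interleukin 7, was 218 ± 7.28 in T and 0.419 ± 0.220 in B cells, and Socs3, an inhibitor of cytokine signals, was 46.7 ± 16.5 in T and 5.64 ± 1.62 in B cells. Il7r passed the filter through T cells alone. Of the 8 that passed it in both cell types, 7 were higher in T cells and 0 in B cells, where 42.2% and 26.6% of all genes that passed in both were. With equal totals, 4 of the 9 stayed higher in T cells, and with equal protein-coding totals 6 were higher in T cells and 1 in B cells. Of 11 genes of the mature CD8 and CD4 programmes, 7 were tested, and 5 of these passed the filter through a single cell type, so their count is not read further. Cd40lg, the helper T cell ligand of CD40, was 21.6 ± 2.81 in T and 0.0624 ± 0.0145 in B cells, and Klrd1 was 20.2 ± 2.83 in T and 0.895 ± 0.485 in B cells. Tbx21, the factor T-bet, was 1.66 ± 0.501 in B and 0.155 ± 0.141 in T cells, and the chemokine gene Ccl5 was 1.74 ± 0.761 in B and 0.209 ± 0.200 in T cells.

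**Figure D5:**
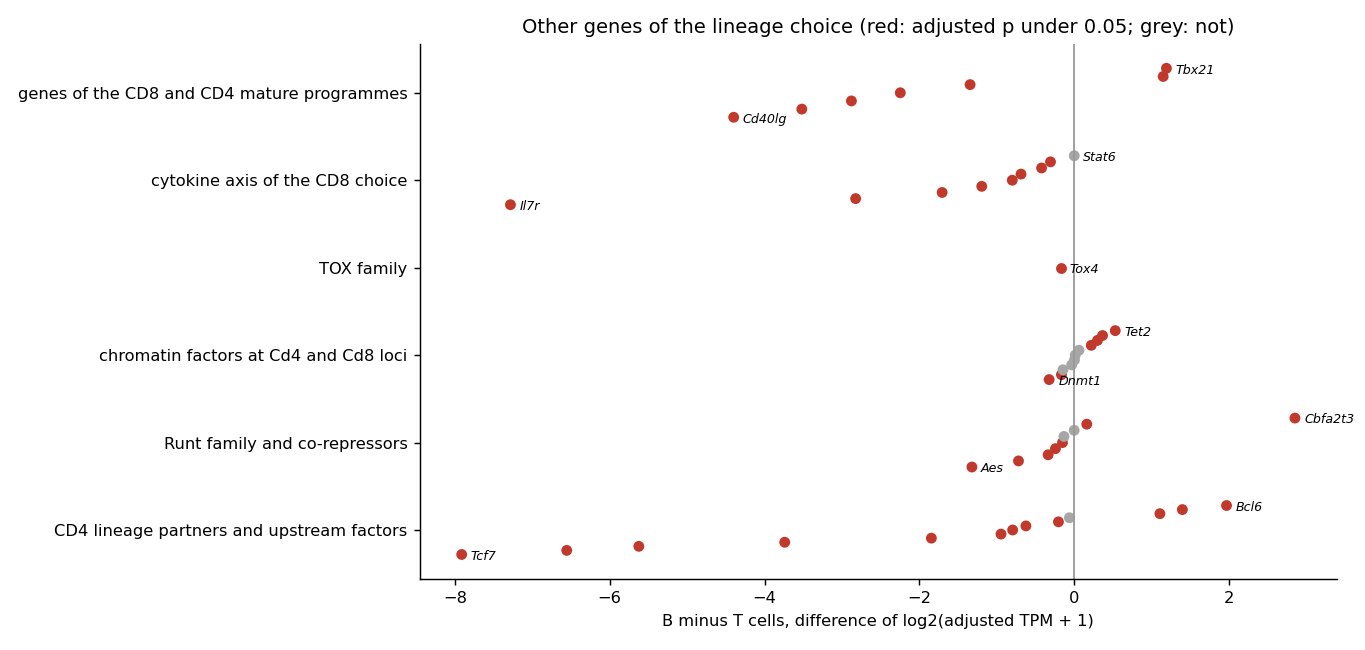
B minus T difference of log2(adjusted TPM + 1) for every tested gene of the 6 lists, 1 point a gene, red where the adjusted p from limma is under 0.05 and grey where it is not; the lowest and the highest gene of each list are named. Points left of 0 are higher in T cells, with Tcf7 and Il7r farthest, and points right of 0 higher in B cells, with Cbfa2t3 and Bcl6 farthest.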

How the data were processed

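RNA sequencing of 12 libraries in 4 groups of 3 was read from 1 table deposited by the authors. Per the labels, total RNA was depleted of ribosomal RNA and made into stranded libraries with ERCC spike-ins, which were not analysed here. The submitters' processing notes name Trim Galore, FastQC, STAR and mm10. The deposited signal is adjusted TPM with a lower and an upper bound, in 3 columns a library. The tool of quantification, the annotation, the adjustment and the level of the bounds are not given in the sources used here. Some label fields name genomic DNA, and the values were treated as RNA. The library totals run from 561020 to 1453940, so a factor differs between libraries; depth is unknown, and no value is 0.

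Groups were taken from the labels. Coordinates come from GENCODE M21 on GRCm38, the assembly of mm10, to which 40254 genes matched, and promoters from RefSeq on GRCm38.p6. The main test was limma 3.58.1 in R 4.3.3 with a mean-variance trend and 1 coefficient a group, on log2(adjusted TPM + 1). Ratios and orders were tested with exact permutation tests in Python 3.11.15. Replicate numbers of females and males were checked by correlating deviations from group means: in T cells the same numbers gave 0.72, 0.55 and 0.52, and the numbers were taken to pair those libraries. Tested on simulated data for B against T cells, with 12520 genes of which 200 changed by a log2 value of 1, the fit recovered 97.5% of them, and 5.61% of its calls were false. The recovery was 92.9% for the sexes in B cells, 93.3% in T cells and 80.3% for the difference. The simulated libraries varied independently and few genes changed. In these data same-numbered T cell libraries deviated together and most genes were called, so the simulated false share does not give that of the fits here.

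The members and lists were chosen with earlier results of these data known. Named list genes are the 2 largest differences in each direction past the threshold, and the nearest patterns are the 3 closest tested genes, without antigen receptor segments. A single marker gene is not reported here. Alternatives covered the pseudocount, filter, scaling, trend, replicate block, cell type and each library; 4 more were added after seeing the data. The authors' table holds no comparison columns.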

Additional observations from a re-analysis of the deposited data

How the results depend on the processing

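The directions of the 8 genes between B and T cells held under every alternative fitted, and the number past the threshold was 7 or 8. Cd4, Cd8b1, Tox and Cd8a passed the filter through a single cell type and had to differ, so only Zbtb7b, Runx1, Runx3 and Cbfb inform this count. The calls lost were those of Cbfb with totals of 1000000 and with equal protein-coding totals, and of Runx1 without a filter, without the 2 libraries with the largest totals (adjusted p = 0.0526) and in the 8 fits given above; the cause was not tested. None of the 8 genes passed the threshold in a sex contrast under any alternative. Fitted values of Cd4, Tox, Cd8b1 and Cd8a depend on the pseudocount, and with 0.1 they were -10.85, -6.29, -5.70 and 2.41.

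Counts over all genes moved more. Without a filter 24591 genes passed between B and T cells, 10985 between the sexes in B cells, 10607 in T cells and 11201 in the difference, against 9134, 18, 13 and 0, with all 41128 genes tested. The genes added there had not reached an adjusted TPM of 1 in 3 libraries. These counts are therefore not read as differences between the sexes. With totals of 1000000 the sex counts were 36 in B cells, 23 in T cells and 16 in the difference. In B cells the count was 11 without the 2 libraries with the largest totals and 5 with B cell libraries alone. In T cells it was 24 with a pseudocount of 0.1. For the difference it was 1 with a pseudocount of 0.1, with quantile normalization and with equal protein-coding totals, 3 without a trend and 3 without the 2 T cell libraries numbered 6. Leaving out each library gave 0 to 3, with 3 without female T cell 6. Of the calls between B and T cells, 43.0% were higher in B cells as deposited, 70.8% with totals of 1000000 and 65.8% with equal protein-coding totals.

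With the replicate number as a block, 14 genes passed between the sexes in B cells, 10 in T cells and 0 in the difference, and none of the 8 genes passed in any of them. B and T cells share no number, so no block was fitted between them, and that fit takes same-numbered T cell libraries as separate. With the same-numbered T cell libraries averaged, 0 of the 14 neighbouring pairs passed in the order of levels, against 12, and the 3 ratios kept their calls. With so few T cell values no neighbouring pair could pass after adjustment. In B cells the same numbers gave correlations of -0.17, -0.04 and -0.34 and share only a number. The 3 ratios kept their direction and call with the lower or the upper bounds and without each library, where the exact p was 0.00433. Leaving out a library from the order of levels allows no p under 0.0625, so it was not tested; the order itself stayed in 6 of 6 such sets in B cells and in 4 of 6 in T cells. Depth is unknown, and values under 0.1 have wide bounds, which limits Cd4, Cd8b1 and Tox in B cells.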
